A study of Mus musculus with 2 samples.

Results

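The sites described here are the 500 GATA4 occupied sites with the lowest numbers, 1 to 500, among the 4409 sites of the common peak list from adult mouse liver. They were chosen by the number at the end of each peak's name, and the other 3909 sites of the list, numbered 501 to 4409, served as the comparison. GATA4 was immunoprecipitated from chromatin of whole liver with the antibody GATA4 C-20 and the recovered DNA was sequenced (ChIP-seq), with input DNA from the same tissue as the background. Both samples came from mice of mixed C57BL/6 x Sv129 strain aged 2 to 3 months, with no treatment named in the labels, and no genotype other than the strain is given. The labels give 1 ChIP and 1 input sample, while the methods describe replicates made from pooled livers. Peaks were called per replicate as well as on the reads of both merged, and were kept where their rank was reproducible between replicates (IDR), and the lists analysed here give 1 combined set of peaks. Sites are therefore the units of every test below, and the p-values measure only the spread between sites of 1 combined sample.

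GATA4 is a zinc finger transcription factor that binds the sequence WGATAR, where W is A or T and R is A or G, so that the motif has 4 forms. It takes part in the formation of the heart and of the liver bud. In the adult liver it is expressed in hepatocytes and in the sinusoidal endothelium, the permeable lining of the liver's capillaries. Whole liver holds all of these cells, and the peak lists by themselves do not divide the ChIP signal among them.

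The sequences at the head of the list show what a leading site looks like. Each stretch is given on the plus strand from 5′ to 3′ in build mm9 (NCBI Build 37). It is centred on the WGATAR nearest to the midpoint of the peak, or on the midpoint where there was none, with every WGATAR in capitals. The gene named is the one with the nearest transcription start site (TSS) among protein-coding genes. Sites 1 to 10 are shown except sites 5 and 8, of which only values are given.
site 1 (Rhobtb1), chr10:68681920-68681985: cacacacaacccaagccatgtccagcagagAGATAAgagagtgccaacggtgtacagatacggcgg
site 2 (Map3k3), chr11:105996701-105996766: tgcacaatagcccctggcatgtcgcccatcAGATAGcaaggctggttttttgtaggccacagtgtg
site 3 (Zc3h6), chr2:128792930-128792995: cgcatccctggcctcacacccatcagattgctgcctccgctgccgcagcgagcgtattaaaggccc
site 4 (St3gal4), chr9:34866734-34866799: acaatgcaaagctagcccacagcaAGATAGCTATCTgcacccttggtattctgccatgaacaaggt
site 6 (Tuba4a), chr1:75213874-75213939: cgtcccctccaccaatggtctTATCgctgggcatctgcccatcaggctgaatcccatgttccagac
site 7 (Pdlim5), chr3:142048741-142048806: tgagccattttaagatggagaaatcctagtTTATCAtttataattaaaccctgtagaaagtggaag
site 9 (D17H6S56E-3), chr17:35158966-35159031: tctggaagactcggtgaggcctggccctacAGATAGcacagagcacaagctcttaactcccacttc
site 10 (Pzp), chr6:128477324-128477389: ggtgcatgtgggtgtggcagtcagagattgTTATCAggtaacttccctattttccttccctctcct
Site 4 held an AGATAG on each strand, back to back. Site 3 held no WGATAR, and the capitals at site 6 mark the 4-base core GATA, read here as TATC from the other strand, without the full WGATAR.

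Further sequences are shown for sites beside genes that the gene lists below turn on, and these sites were picked after their values had been seen.
site 14 (Ahsg), chr16:22881668-22881733: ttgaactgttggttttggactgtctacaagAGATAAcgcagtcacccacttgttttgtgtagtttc
site 15 (Epas1), chr17:87169213-87169278: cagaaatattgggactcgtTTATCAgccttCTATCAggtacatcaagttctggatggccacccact
site 42 (Ppara), chr15:85605020-85605085: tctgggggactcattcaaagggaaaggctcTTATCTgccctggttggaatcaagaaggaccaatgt
site 45 (Oit3), chr10:58906168-58906233: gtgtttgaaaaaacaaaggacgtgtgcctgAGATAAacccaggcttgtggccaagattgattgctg
site 62 (Mrc1), chr2:14157125-14157190: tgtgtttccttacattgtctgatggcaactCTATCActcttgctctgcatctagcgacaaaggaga
site 81 (Flt1), chr5:148469631-148469696: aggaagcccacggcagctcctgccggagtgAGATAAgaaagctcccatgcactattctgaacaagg
site 109 (Zfpm1), chr8:124830778-124830843: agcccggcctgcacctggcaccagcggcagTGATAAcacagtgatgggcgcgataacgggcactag
Site 15, in the first intron of Epas1, held 2 WGATAR matches read from the minus strand within the stretch shown. Ahsg encodes the plasma protein fetuin-A, Ppara a nuclear receptor of fatty acid oxidation, Flt1 a receptor of vascular endothelial growth factor, Mrc1 the mannose receptor of sinusoidal endothelium and Zfpm1 the GATA cofactor FOG1.

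Sites 1 to 10 lay beside or inside genes of different kinds. Site 1 was 163 bp upstream of a TSS of Rhobtb1 and fell in intron 3 of a longer transcript of the same gene. Site 2 lay in intron 6 of Map3k3, a kinase at the top of a MAP kinase cascade, 15810 bp from the nearest TSS. Site 3 lay 175 bp upstream of Zc3h6, a zinc finger gene, in exon 1 of the gene model Gm10762, and was the CpG-rich site among the leading 10. Site 4 lay in intron 1 of St3gal4, a sialyltransferase, 57630 bp downstream of its start. These 4 sites thus ranged from promoters to the depth of a gene body.

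Site 5 had Pdlim1 as its nearest gene by TSS, at 26056 bp, and held 2 WGATAR. Site 6 lay in exon 2 of Tuba4a, an alpha-tubulin, 1921 bp downstream of the start. Site 7 lay in intron 2 of Pdlim5, which like Pdlim1 encodes a PDZ and LIM domain protein of the actin cytoskeleton. Site 8 lay in intron 2 of Arhgap26 and held 3 WGATAR. Site 9 lay in intron 9 of D17H6S56E-3 and held 4 WGATAR. Site 10 was 629 bp upstream of Pzp, a plasma protease inhibitor of the alpha-macroglobulin family. Of these 10 sites, 8 held a WGATAR within 100 bp of the midpoint.

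The number that chose the sites follows the list of the SPP peak caller. The 500 sites carried the SPP numbers 1 to 504 in unbroken order, so that the first 500 common sites are the leading SPP peaks that also met a MACS2 peak. Nothing in the files says what this order rests on, and only the methods name a sort of the SPP peaks, by signal value. The score deposited with each of the 4409 sites was 1000, a display value, and no read depth comes with the files, so neither an enrichment nor a counting error can be given for a single site.

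Peak width and the number given by MACS2, the other peak caller, come from the same reads as the number that chose the sites and are given as description only. Sites 1 to 500 had a median width of 253 bp (quartiles 224 and 287, range 150 to 631), and the other sites 176 bp (quartiles 136 and 320, range 80 to 461). The median fell to 148.5 bp in sites 2001 to 2500 and was 320 bp in the last 409 sites. A width of exactly 320 bp was found in 1123 of the other sites (28.7%) and in 4 of the leading ones (0.80%). The widest, site 109, lay 24811 bp downstream of the Zfpm1 start. The median MACS2 number was 259.5 against 2455. By MACS2 number, 355 of the 500 (71.0%) were also among the 500 leading common sites. The highest MACS2 number, 2857, belonged to site 491, 1134 bp upstream of Cyp2j5, a cytochrome P450 gene. At the boundary, site 500, in intron 1 of Sdc4, was 199 bp wide with 3 WGATAR and MACS2 number 467. Site 501, in intron 2 of Spnb2, was 205 bp wide with 1 WGATAR and MACS2 number 1136.

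More of the leading sites held the GATA motif, and more of them held it repeatedly. WGATAR occurred in the central 200 bp of 458 of the 500 sites (91.6%, 95% Wilson interval 88.8 to 93.7) and of 3242 of the other 3909 (82.9%, 81.7 to 84.1). The difference was 8.66 percentage points (95% interval 5.67 to 11.1), past the threshold of 0.05 by a two-sided Fisher's exact test with Benjamini-Hochberg adjustment over 10 site features (adjusted p = 6.86e-07). Windows of the same length 5000 bp to the right of each site held it in 32.2% and 30.6%, so that the background was close to equal in both sets. A window of fixed length was used because peak width varied along the list.

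At least 2 WGATAR were found in 230 of the 500 sites (46%) and in 1315 of the others (33.6%), a difference of 12.4 points (95% interval 7.79 to 17.0, adjusted p = 6.86e-07, two-sided Fisher's exact test). The 500 sites held 787 matches, a mean of 1.57 per site against 1.25. Exactly 1 match was found in 228 sites (45.6%) and in 49.3% of the others, and 3 matches in 55 (11%) and in 6.47%. The shift was thus away from sites with none or 1 and towards sites with several. The 5 sites with 5 or more matches lay beside Aldh1a1 (site 269), Lclat1 (site 297), Atxn7l3b (site 315), 4833424O15Rik (site 377) and Grk5 (site 392), named after their values were seen. Aldh1a1, a retinal dehydrogenase, was also nearest to site 195, with 2 matches.

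The motifs gathered at the centre of the peaks. The WGATAR nearest to the midpoint lay at a median of 14 bp from it in sites 1 to 500 and of 19 bp in the other sites. In the 20 bp to the right of the midpoint there were 34.8 matches per 100 leading sites. At 480 to 500 bp to the left there were 3.60. The position of the midpoint depends on how the caller set each peak's edges, and the distance was not tested.

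**Figure D1:**
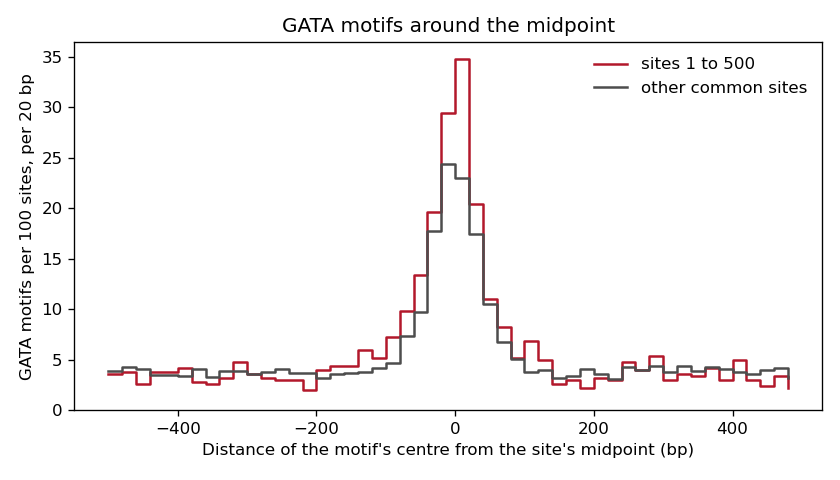
WGATAR matches per 100 sites in bins of 20 bp (y axis) against the distance from the site's midpoint in bp (x axis), for sites 1 to 500 (red) and the other 3909 common sites (grey). Both profiles peak at the midpoint, where the red line reaches 34.8 matches per 100 sites, and both fall to a similar low level by 200 bp on either side.

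The 4 forms of the motif stood in nearly the same proportions in both sets. Of the 787 matches in the leading sites, AGATAA made up 46%, TGATAA 28.1%, AGATAG 16.1% and TGATAG 9.78%. In the other sites the shares were 44.7%, 26.8%, 17.4% and 11.1%. In the control windows of the leading sites AGATAA made up 30.1% and AGATAG 26.9%, so both sets of sites leaned towards the forms ending in AA. Counted by site, TGATAA occurred in 187 of 500 (37.4%) and in 30.1% of the others (difference 7.32 points, 95% interval 2.94 to 11.9, adjusted p = 0.00333, two-sided Fisher's exact test), and AGATAA in 57.6% and 48.0%. AGATAG and TGATAG, at 22.6% and 15.0% of the leading sites, did not pass the test (adjusted p = 0.452 and 0.671, two-sided Fisher's exact test over 34 motifs).

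Where a leading site held at least 2 WGATAR, the arrangement of the closest pair was near that in the other sites. The closest pair lay within 20 bp in 66 of 230 sites (28.7%, 95% Wilson interval 23.2 to 34.9) and in 25.2% of the others. It lay within 50 bp in 62.2% and 57.0%. Both matches faced the same way in 117 of the 230 pairs (50.9%) and in 50.7% of the others. These shares were not tested.

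The sites without the motif in the centre form a small and mixed group. Of the 42, 30 held the bare GATA core within the central 200 bp and 12 did not. In 11 of the 42 a WGATAR lay within 500 bp centred on the midpoint, and in 7 within the peak as called. Site 201, in intron 2 of Eng, the endothelial co-receptor endoglin, held no GATA core in its central 200 bp but 3 WGATAR in the whole peak of 486 bp. The 12 sites without a core had as nearest genes Ip6k2, Fam169a, Smad7, Eng, Kazn, Ugcg, Adam19, Trip12, Anp32a, Bcas3, Pde2a and Cd83, named after their values were seen. Of the 42 sites, 16 (38.1%) lay within 1 kb of a TSS and 15 (35.7%) were CpG-rich, against 16.2% and 8.52% of the 458 sites with the motif. CpG-rich here means a GC content of at least 50% and an observed over expected CpG ratio of at least 0.6 in the central 500 bp.

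Promoter sites held the motif less often than distal sites in both sets. The leading sites had the higher share in each kind of place, but of these places only sites beyond 1 kb were tested. Within 1 kb of a TSS it occurred in 74 of 90 leading sites (82.2%, 95% Wilson interval 73.1 to 88.8) and in 73.9% of the others (70.5 to 77.0). Beyond 1 kb it occurred in 384 of 410 (93.7%) and in 84.9%. Among CpG-rich sites the shares were 39 of 54 (72.2%, 95% Wilson interval 59.1 to 82.4) and 59.7% (54.4 to 64.7). In both of these places the intervals of the leading and the other sites overlap. At least 2 matches were found in 50.7% of the leading sites beyond 1 kb and in 24.4% of those within it. Leaving out every site within 1 kb of a TSS gave a difference of 8.74 points for WGATAR (adjusted p = 1.21e-06, two-sided Fisher's exact test).

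The share of sites with WGATAR declined along the rest of the list. In successive bands of 500 sites it was 91.6%, 88.0%, 85.4%, 86.2%, 84.8%, 82.2%, 81.0%, 78.6% and, in the last 409 sites, 76.0%. The band next to the leading one, sites 501 to 1000, had an interval of 84.9 to 90.6, which overlaps that of sites 1 to 500. Sites with 2 or more WGATAR went from 46% to 38.4% between those bands and were at 25.4% in the last. The first 500 are thus the upper end of a slope rather than a step. Within the 500, successive groups of 100 sites held WGATAR in 89, 97, 94, 90 and 88 sites, so that the leading group was no higher than the rest.

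**Figure D2:**
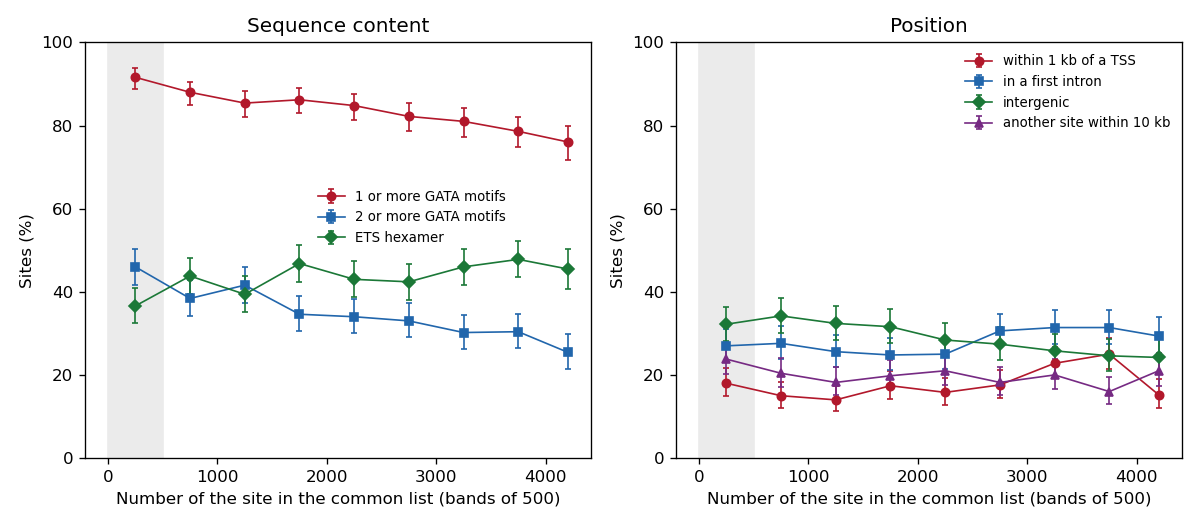
Share of sites in percent (y axes) in successive bands of 500 along the common list (x axes, number of the site, last band 409 sites), with 95% Wilson intervals as bars and sites 1 to 500 shaded. On the left, sites with 1 or more WGATAR fall from 91.6% to 76.0% and sites with 2 or more from 46% to 25.4%, while the ETS hexamer is lowest in the shaded band at 36.6%. On the right, the shares by position move less, and intergenic sites make up 32.2% of the shaded band and 24.2% of the last.

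Beyond the forms of the GATA motif itself, few other motifs set the leading sites apart. Of 34 motifs scanned on both strands of the central 200 bp, 6 passed an adjusted p of 0.05, 5 higher and 1 lower in sites 1 to 500. Of the 5, 4 were forms of the GATA motif. They were the full motif, its forms AGATAA and TGATAA described above, and the core of 4 bases, which was present in 97.6% of the leading sites and in 94.0% of the others. The remaining 2 were a motif of the C/EBP factors, basic leucine zipper proteins abundant in liver, and one of the ETS factors, which include ERG and FLI1 of endothelium.

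The C/EBP motif TTGCNNAA occurred in 84 of 500 leading sites (16.8%) and in 12.2% of the others, a difference of 4.62 points (95% interval 1.42 to 8.29, adjusted p = 0.0299, two-sided Fisher's exact test with Benjamini-Hochberg adjustment over 34 motifs). Control windows held it in 8% and 8.39%. The call was lost under 7 of 11 alternatives, among them the 500 sites leading by MACS2 number (0.788 points, adjusted p = 0.840, two-sided Fisher's exact test). It was most frequent in leading sites with 2 WGATAR (21.8%) and least in those with 3 or more (6.76%).

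The ETS motif AGGAAG went the other way. It occurred in 183 of 500 leading sites (36.6%, 95% Wilson interval 32.5 to 40.9) and in 44.3% of the others, 7.71 points fewer (95% interval of the signed difference -12.1 to -3.13, adjusted p = 0.00753, two-sided Fisher's exact test). Control windows held it in 22.6% and 23.4%, so it stood above its background in both sets. Among sites with 1 WGATAR it was present in 32.9% of the leading sites and 44.1% of the others, and among sites with 3 or more in 37.8% and 36.5%. Averaged within classes of WGATAR number, an alternative added after the data were seen, the difference was -6.84 points (adjusted p = 0.0257 over 34 motifs, Cochran-Mantel-Haenszel test across sites, which is not an exact test). A second ETS form, CCGGAA, was found in 9.60% and 8.60% and did not pass (adjusted p = 0.732, two-sided Fisher's exact test). The call for AGGAAG was lost in windows of 500 bp (-4.42 points), for the 500 sites leading by MACS2 number (-2.52 points), and for the 1000 leading sites against the rest (-4.18 points, adjusted p = 0.0859, two-sided Fisher's exact test). Over whole peaks, whose widths differ between the sets, the difference was 0.504 points.

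The remaining motifs did not pass the test, and their intervals bound what a difference could be. The incomplete E-box placed upstream of GATA, a composite bound by GATA factors together with TAL1 in blood and endothelium, was found in 16.4% and 13.8% (95% interval of the difference -0.629 to 6.21 points), and its control windows held it in 4% and 4.04%. The forkhead motifs TGTTTAC and TATTTAC, of the FOXA factors of liver, were found in 8.60% and 8.90% (-2.65 to 2.61). The hexamer AGGTCA, bound by many nuclear receptors, was found in 26.4% and 24.1% (-1.64 to 6.52). The motif CAAAGTCCA of HNF4A, a nuclear receptor of hepatocytes, was found in 11 leading sites (2.20%) and in 1.05% of the others (unadjusted p = 0.0429, adjusted p = 0.208, two-sided Fisher's exact test). The AP-1 motif TGANTCA was found in 5.60% and 7.52% (-3.83 to 0.580).

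**Figure D3:**
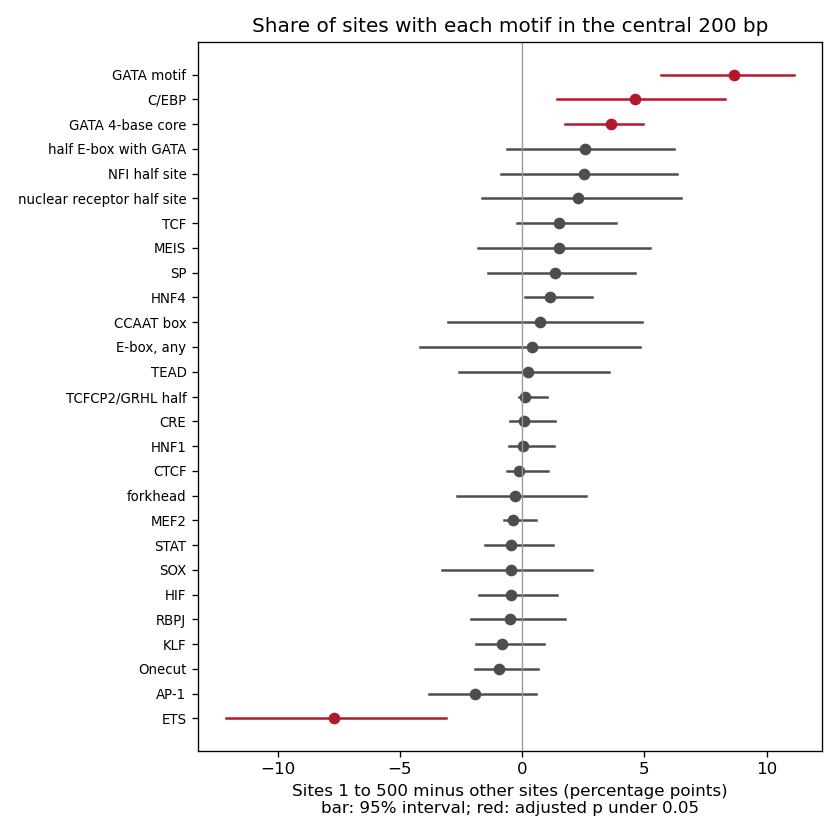
Difference in the share of sites with each motif in the central 200 bp, sites 1 to 500 minus the other common sites, in percentage points (x axis), for 27 of the 34 motifs (y axis, the single GATA forms and alternative E-box and ETS forms left out). Points are the differences and bars their 95% intervals, and red marks an adjusted p under 0.05, reached here by the GATA motif (8.66 points), C/EBP (4.62), the GATA core and, below 0, ETS (-7.71).

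In position relative to genes the leading sites lay much like the rest. The regions follow the study's definitions, with 5 kb on either side of a gene, and a site could meet several of them. Promoter-proximal windows were met by 127 of the 500 (25.4%) and by 26.5% of the others. First introns were met by 135 (27.0%) and 28.2%. The rest of a gene was met by 165 (33.0%) and 34.3%, and the downstream window by 77 (15.4%) and 16.1%. Of the 500, 161 (32.2%) were intergenic, against 28.7% of the others, a difference of 3.52 points that did not pass (95% interval -0.678 to 7.97, adjusted p = 0.210, two-sided Fisher's exact test). Against the last 500 sites of the list alone, of which 24.2% were intergenic, the difference of 8 points passed (adjusted p = 0.0152, two-sided Fisher's exact test).

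Within 1 kb of a TSS lay 90 leading sites (18.0%) and 17.9% of the others, and the 95% interval of the difference ran from -3.26 to 3.89 points (adjusted p = 0.951, two-sided Fisher's exact test). The median distance to the nearest protein-coding TSS was 13982.5 bp against 14605 bp. CpG-rich sequence was found at 54 leading sites (10.8%) and at 8.88% of the others (difference 1.92 points, -0.678 to 5.07, adjusted p = 0.229, two-sided Fisher's exact test). The median GC content of the central 200 bp was 50% and 49.5%.

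**Figure D4:**
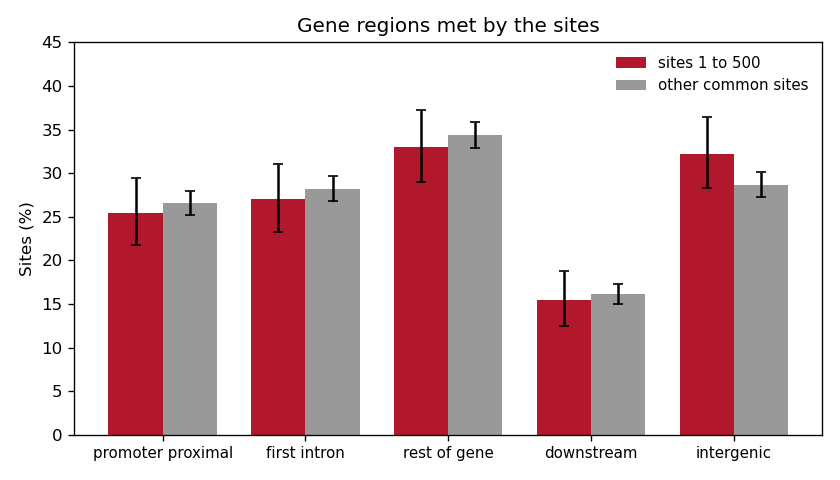
Share of sites in percent (y axis) that meet each kind of gene region (x axis), for sites 1 to 500 (red) and the other 3909 common sites (grey), with 95% Wilson intervals as bars. A site can meet more than 1 region, and the intervals of both sets overlap in each region, intergenic sites included (32.2% against 28.7%).

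Inside the leading 500, the first group of 100 held the most sites within 1 kb of a TSS, but the counts by group were not tested. Of sites 1 to 100, 24 lay within 1 kb of a TSS, 17 were CpG-rich and 20 were intergenic. In the next 4 groups of 100, 16, 20, 12 and 18 lay within 1 kb, 10, 10, 10 and 7 were CpG-rich, and 33, 39, 37 and 32 were intergenic. For the 250 leading sites against the rest of the list, the CpG-rich share was 13.6% against 8.82% (adjusted p = 0.0417, two-sided Fisher's exact test), a call not made for the 500. For the same 250, the share within 1 kb of a TSS was 20.4% against 17.8% and did not pass (adjusted p = 0.440, two-sided Fisher's exact test).

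The 2 peak callers placed CpG-rich promoters differently. Of the 355 sites among the leading 500 of both orders, 78 (22.0%) lay within 1 kb of a TSS and 52 (14.6%) were CpG-rich. Of the 145 that led by the common number alone, 12 (8.28%) lay within 1 kb and 2 (1.38%, 95% Wilson interval 0.379 to 4.89) were CpG-rich. Of the 145 that led by MACS2 number alone, 35 (24.1%) lay within 1 kb and 28 (19.3%, 13.7 to 26.5) were CpG-rich. WGATAR was present in 91.3%, 92.4% and 80.7% of these groups in turn. When the 500 lowest MACS2 numbers were used, the CpG-rich share was 16.0% against 8.21% (adjusted p = 1.29e-06) and the share within 1 kb of a TSS 22.6% against 17.3% (adjusted p = 0.00892, two-sided Fisher's exact test), so the result on promoters holds for the common numbering alone.

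Some of the leading sites stood in clusters. Another common site lay within 10 kb of 119 of the 500 (23.8%) and of 19.3% of the others, a difference of 4.51 points that just passed (95% interval 0.766 to 8.62, adjusted p = 0.04998, two-sided Fisher's exact test). With a reach of 5 kb or 50 kb the call was lost (2.11 and 3.99 points), as it was in 4 of 6 alternatives in all. The neighbour was itself one of the 500 in 22 cases, and no pair of leading sites lay within 1 kb of each other. The densest group was at site 17, 3456 bp upstream of the retinol dehydrogenase gene Rdh1, with 6 common sites within 10 kb including itself. Of these 6 sites, 3 were assigned to another gene, Gpr182, a member of the endothelial list below. The lowest-numbered of the 3 was site 656, and Gpr182 was also named after its values were seen. Groups of 4 stood at sites near Kcnk6 (site 215), Zfpm1 (site 305), Smad6 (site 314) and Masp1 (site 413), a complement protease gene, all named after their values were seen.

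The sites were spread over all autosomes and sparse on the X chromosome. Their density ran from 14.0 per 100 Mb on chromosome 6 to 35.9 on chromosome 19, while the X chromosome held 3 sites, or 1.80 per 100 Mb. Of the other 3909 sites, 27 lay on the X chromosome.

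Within 50 kb of a protein-coding TSS lay 399 of the 500 sites (79.8%) and 76.7% of the others (difference 3.13 points, 95% interval -0.829 to 6.68, adjusted p = 0.212, two-sided Fisher's exact test). The 399 sites were assigned to 384 genes, each site to the nearest. This is 1.73% of the 22238 protein-coding genes of the annotation, and the other sites were assigned to 2344 genes, or 10.5%. Of the 384 genes, 139 (36.2%) also had a site outside the leading 500. Within this reach no gene had 3 or more leading sites, and 15 had 2, among them Epas1, Oit3, Ghr, Lifr, Aldh1a1, Cbfa2t3 and Zfpm1, named after their values were seen. With no limit of distance, some genes were nearest to 3 or more. Among them were Lifr (sites 207, 228 and 279) and Gm10295 (sites 160, 167, 255 and 292).

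Among the gene lists compared, that of the endothelium had the highest share of members with a site, both for the leading sites and for the rest. Of 45 genes of sinusoidal and vascular endothelium, 10 (22.2%) were nearest to a leading site, beside 1.73% of all protein-coding genes, and 35 (77.8%) to another common site, beside 10.5%. The list accounts for 75 sites of the whole common list, of which 11 (14.7%) were among the leading 500, beside 11.7% of all 3396 assigned sites. No test was run on the lists, which were written with earlier results of these data known.

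The lowest-numbered endothelial gene was Oit3, a zona pellucida domain gene expressed in liver, with site 45 at 1699 bp and site 46 at 161 bp upstream of its TSS, holding 2 and 1 WGATAR. Mrc1 had site 62 in intron 1 with 4 WGATAR, 3 of them TGATAA. Flt1 had site 81 in intron 10 with 3 WGATAR. Tek, the receptor of the angiopoietins, had site 164 at 73 bp downstream of its TSS, in exon 1, with 1 WGATAR. Sites of the remaining members, Stab2, Eng, Egfl7, Kdr, Ehd3 and Stab1, were numbered from 200 to 429. These sites thus lay in promoters and introns alike.

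Among 28 transcription factors of endothelium, 5 (17.9%) had a leading site and 17 (60.7%) another one, beside 1.73% and 10.5% of all genes. Of the list's 36 sites, 6 (16.7%) were leading ones, beside 11.7% of all assigned sites. Epas1, the hypoxia-inducible factor HIF-2 alpha, had sites 15 and 344, both in intron 1, at 16032 and 22926 bp from its TSS. Lyl1, a basic helix-loop-helix factor of blood and endothelium, had site 40 at 213 bp downstream of its TSS with 2 WGATAR. Hhex, a homeobox factor of the liver bud and endothelium, had site 54 in intron 1. Erg, an ETS factor, had site 352 in intron 3 with 2 WGATAR, and Sox7 was the other member.

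The markers that define each liver cell type are so few that a share near the 1.73% of all genes would show as 0. Of these, 3 of 6 for endothelium had a leading site (Tek, Stab2 and Kdr) and all 6 had another common site. For hepatocytes none of 5 had a leading site, and 4 had another, with Cps1 first at number 872 and Alb, the albumin gene, at 2023. None of the 5 Kupffer cell, 4 stellate cell and 4 cholangiocyte markers had any common site within reach. A site near a gene does not show that the gene was expressed, and the cell of origin of each site was not tested in these files.

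Secreted and enzyme genes of hepatocytes, and genes of lipid metabolism, had sites across the common list and not among the leading sites alone. Of 55 hepatocyte secreted and enzyme genes, 3 (5.45%) had a leading site and 17 (30.9%) another one, beside 1.73% and 10.5% of all genes. Of this list's 22 sites, 3 (13.6%) were leading ones, near the 11.7% of all assigned sites. With 3 genes, the list's share is not read as a result. Ahsg had site 14, 10406 bp upstream of its TSS. Hal, which degrades histidine, had site 427 in exon 20, and Apoa2, an apolipoprotein of high-density lipoprotein, had site 441 at 1059 bp upstream. Of 74 genes of lipid, cholesterol and bile acid metabolism, 7 (9.46%) had a leading site and 26 (35.1%) another one, beside the same 1.73% and 10.5%. Of its 38 sites, 7 (18.4%) were leading ones, beside 14.7% for the endothelial list and 11.7% of all assigned sites. These shares of sites rest on few sites and were not tested. Ppara had site 42 in intron 2 with 3 WGATAR. Abcg5, one subunit of the sterol exporter, had site 87 at 17 bp upstream of its TSS, in intron 1 of the neighbouring Abcg8, with 3 AGATAA. Soat2, which esterifies cholesterol, had site 118, and Angptl4, an inhibitor of lipoprotein lipase, had site 119.

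Of 48 genes of glucose, glycogen and insulin response, 1 (2.08%) had a leading site, close to the 1.73% of all genes. Another common site was found for 18 (37.5%), beside 10.5% of all genes. The gene with a leading site was G6pc, the catalytic subunit of glucose-6-phosphatase, with site 472 at 2847 bp upstream and 2 WGATAR. The list's other 23 sites were numbered above 500. Of 35 liver transcription factors, 3 (8.57%) had a leading site and 15 (42.9%) another one, beside 1.73% and 10.5% of all genes. This list accounts for 25 sites, of which 3 were leading ones. A share that rests on 3 genes is not read as a result. Cebpb had site 247 with 1 match of the C/EBP motif as well as 1 WGATAR. Nr5a2, a nuclear receptor of bile acid synthesis, had site 379 at 186 bp upstream with 3 WGATAR. Creb3l3, a membrane-bound bZIP factor, had site 443 at 133 bp upstream.

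Of 7 GATA and FOG genes, 1 (14.3%, beside 1.73% of all genes) had a leading site and 3 (42.9%, beside 10.5%) another one. The gene with a leading site was Zfpm1, with site 109, a peak of 631 bp, and site 305, at 24811 and 32966 bp downstream of its TSS. With 1 gene, this share is not read as a result. Site 357, named after its values were seen, lay 72062 bp upstream of Gata4, its nearest gene, and so outside the reach of 50 kb. It held 3 WGATAR. Of the signalling lists, 1 of 36 genes of BMP and TGF-beta signalling (2.78%), 2 of 54 of the MAP kinase cascade (3.70%) and 2 of 45 of Notch and Wnt signalling (4.44%) had a leading site, beside 1.73% of all genes. With 1 or 2 genes each, these shares are not read as a result. Smad6, an inhibitory SMAD, had site 314, CpG-rich and 38353 bp from its TSS. Dusp16, a MAP kinase phosphatase, had site 270 in intron 4. Notch1 had site 407 in intron 14, and Lrp6, a Wnt co-receptor, site 480.

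Of 30 genes of Kupffer and other blood cells, 2 (6.67%, beside 1.73% of all genes) had a leading site and 3 (10%, beside 10.5%) another one. With 2 genes, the leading share is not read as a result. The 2 genes were Slc40a1, the iron exporter ferroportin (site 72), and Id3 (site 478, 210 bp upstream of its TSS). None of 27 genes of stellate cells and matrix, 16 of cholangiocytes and 20 cardiac contractile genes had a leading site. The same held for 26 neuronal genes and 1113 olfactory receptors. In these lists in turn, 3 (11.1%), 1 (6.25%), 2 (10%), 0 and 1 (0.0898%) had another common site, beside 10.5% of all genes. The stellate and cardiac shares were thus near that of all genes. At the 1.73% of all genes, a count of 0 leading sites is what lists of this size would give, other than that of the olfactory receptors.

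**Figure D5:**
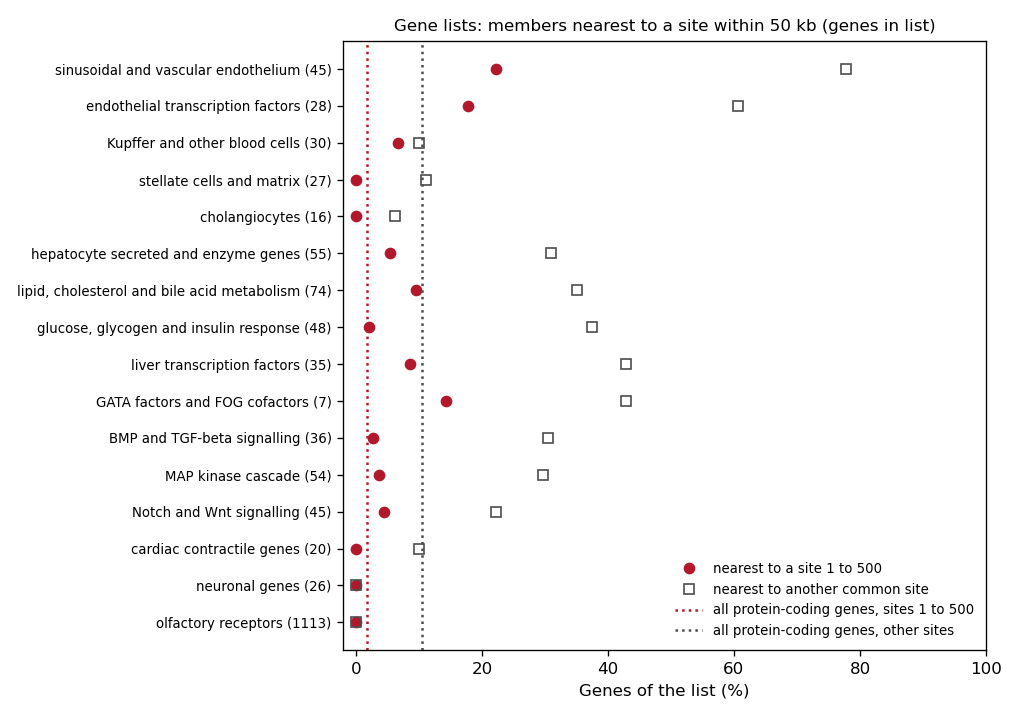
Share of the genes of each list, in percent (x axis), that were the nearest protein-coding gene within 50 kb of a site 1 to 500 (red points) or of another common site (open squares), with the number of genes of each list in brackets (y axis). Dotted lines give the same shares over all 22238 protein-coding genes, 1.73% and 10.5%, and the endothelial list lies farthest right for both sets, at 22.2% and 77.8%.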

How the data were processed

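The authors aligned reads to mm9, called peaks with SPP and MACS2 on each replicate and on merged reads, kept those reproducible by IDR, intersected both lists and kept SPP coordinates. The submitters' processing notes name Bowtie 0.12.7, MACS2 2.0.10 and bedtools 2.16.1. The authors deposited 3 peak lists whose score is 1000 throughout, used as browser tracks and not as a measurement, and the input sample entered only through the peak calls. Read depth is not given in the files.

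Here the genome NCBI Build 37 and the GENCODE M1 annotation (95495 transcripts, 22238 protein-coding gene names) were used, both of the build of the files, with coordinates counted from 1. Motifs were matched exactly on both strands in 200 bp around each midpoint, and in windows 5000 bp to the right. Overlap means at least 1 bp. Shares were compared by two-sided Fisher's exact test with Benjamini-Hochberg adjustment over 10 features or 34 motifs, with 95% Wilson intervals, and Newcombe intervals for differences. The scans and tests were checked on simulated data. Overlap with repeats was left out because the reference marks none. Some items, 1 gene list among them, are not reported here.

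The members and the gene lists were chosen with earlier results of these data known. Named are the nearest genes of sites 1 to 10, genes with 3 or more leading sites, the 4 lowest-numbered genes of each list, the sites at the boundary, and others marked as named after their values were seen. Alternatives were other leading sets, scan windows, reaches and transcript sets. Python 3.11.15, scipy 1.17.1, pandas 2.3.3, pysam 0.24.0, statsmodels 0.14.6, matplotlib 3.10.9 and samtools 1.23.1 were used.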

Additional observations from a re-analysis of the deposited data

How the results depend on the processing

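No paired analysis was possible because the lists analysed here combine both replicates, and for the same reason no replicate could be left out. Of 73 alternatives tried on the 10 shares, 54 kept both direction and side of the threshold, 5 lost a call, 5 gained one and 9 changed sign, and the cause was not tested. The shares with WGATAR and with 2 or more kept their calls in 10 of 10 alternatives each, at 4.70 to 16.6 and 8.52 to 21.2 points.

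For the 250 leading sites the differences in points were 4.12 for TGATAA (call lost), 4.78 for CpG-rich (call gained), 0.364 for first introns, 1.70 for promoter-proximal windows and -1.14 for intergenic sites. For the 1000 leading sites they were -1.83 within 1 kb of a TSS, 5.33 for intergenic (call gained), 2.97 for a site within 10 kb (call lost) and -0.382 for CpG-rich. For the 500 lowest MACS2 numbers they were 5.28 within 1 kb of a TSS and 7.79 for CpG-rich (both calls gained) and 2.93 for promoter-proximal windows. Against the last 500 sites they were 8 for intergenic (call gained) and 3.20 for a site within 10 kb (call lost). Keeping only sites over 10 kb apart gave -0.107 within 1 kb of a TSS, and this could not be run for neighbours. Protein-coding transcripts alone gave 0.520 for promoter-proximal windows, a reach of 10 kb gave -0.178 for assigned sites, and reaches of 5 kb and 50 kb gave 2.11 and 3.99 for neighbours (call lost).

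The number of motifs called was 6, against 2 for the lowest MACS2 numbers and 18 over whole peaks, whose median width is 253 bp in the leading sites and 176 bp in the others. ETS over whole peaks gave 0.504 points. The C/EBP call was lost in 7 of 11 alternatives, the ETS call in 4, that of the 1000 leading sites among them. The 5 alternatives on repeats were not run.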
